A study of Mus musculus with 39 samples.

Results

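Stra8-positive cells are the mouse testis cells that carry RNA of Stra8, the retinoic-acid-induced gene that marks germ cells about to leave the mitotic cycle and enter meiosis. They were chosen by their measured counts in the single-cell data, as barcodes with at least 3000 unique molecular identifiers (UMIs, each counted as 1 captured RNA molecule), at most 20% of UMIs from mitochondrial genes, and at least 2 UMIs of Stra8. The rule found 218 of 11181 passing barcodes in the control library and 90 of 8444 in the library with Kdm6a deleted, 308 of 19625 in all. The study asked what loss of Kdm6a (also called Utx), the X-linked H3K27 demethylase, does to spermatogenic cells. Droplet 3' RNA-seq was made from whole testis of 1 Kdm6a fl/y; Cre- (control) and 1 Kdm6a fl/y; Ddx4-Cre+ (cKO) library, so both groups carry the floxed allele on their single X chromosome and the controls lack Cre. Ddx4-Cre is a germ-cell driver, so the somatic cells of a cKO testis keep the gene. The labels give neither the age nor the number of animals behind a library. ATAC-seq and H3K27me3 CUT&Tag came from sorted cKIT+ spermatogonia of the same genotypes, each with 2 control and 3 cKO libraries. With 1 single-cell library per genotype there is no replicate and no test. All intervals below are 95% counting intervals, exact for each library or for the ratio of both, and hold nothing of the variation between animals. Those of levels and their ratios come from pooled UMIs and hold nothing of the variation between cells either.

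In the testis, retinoic acid binds nuclear receptors (RARs paired with RXRs) that activate Stra8 in differentiating spermatogonia and again in preleptotene spermatocytes, which replicate their DNA once before meiosis. STRA8 protein pairs with MEIOSIN, and together they turn on genes of the meiotic chromosome axis, of DNA break formation and of strand exchange. MEIOC, YTHDC2 and RBM46 act on RNA to end the mitotic programme, and DAZL is the germ-cell RNA-binding protein that licenses the response. The files list Meiosin under the symbol Gm4969 (RefSeq symbol Bhmg1), a gene on chromosome 7 at 19098271 to 19118531 (RefSeq, GRCm38.p6).

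The promoters of Stra8 and of its partner Gm4969 are shown because both genes carry the results below. Prdm9 and Trank1 are shown as examples, picked after the search, of genes with levels like those of Stra8 (described at the end) that hold the motif on the gene's strand, which Cul5, for one, does not in its 250 bases. Each is the 250 bases before a RefSeq transcript start in GRCm38.p6, 5′ to 3′ on the gene's strand, from the RefSeq table. Capitals in the Stra8 promoter mark AGGTCA, a motif that retinoic acid receptors bind. Capitals in the others mark CNCCTCAG, the motif known at promoters bound by STRA8. Both motifs were searched on both strands.
Stra8, chr6:34920698-34920947, plus strand: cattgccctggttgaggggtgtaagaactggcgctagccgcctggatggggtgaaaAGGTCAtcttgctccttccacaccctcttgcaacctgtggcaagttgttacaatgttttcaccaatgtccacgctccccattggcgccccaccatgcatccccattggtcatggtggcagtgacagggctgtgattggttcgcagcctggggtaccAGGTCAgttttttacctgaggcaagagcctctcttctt
Gm4969 (Meiosin), chr7:19118345-19118594, minus strand: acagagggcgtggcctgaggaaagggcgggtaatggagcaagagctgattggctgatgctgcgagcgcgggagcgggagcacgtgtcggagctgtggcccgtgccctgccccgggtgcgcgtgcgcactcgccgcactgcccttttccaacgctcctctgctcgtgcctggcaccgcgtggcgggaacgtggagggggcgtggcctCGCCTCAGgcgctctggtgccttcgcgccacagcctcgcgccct
Prdm9, chr17:15564355-15564604, minus strand: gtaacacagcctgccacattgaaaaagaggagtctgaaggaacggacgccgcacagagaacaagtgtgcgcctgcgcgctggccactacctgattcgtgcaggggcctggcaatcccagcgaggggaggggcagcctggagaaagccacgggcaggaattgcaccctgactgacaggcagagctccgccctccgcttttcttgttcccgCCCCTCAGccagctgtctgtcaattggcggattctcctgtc
Trank1, chr9:111311489-111311738, plus strand: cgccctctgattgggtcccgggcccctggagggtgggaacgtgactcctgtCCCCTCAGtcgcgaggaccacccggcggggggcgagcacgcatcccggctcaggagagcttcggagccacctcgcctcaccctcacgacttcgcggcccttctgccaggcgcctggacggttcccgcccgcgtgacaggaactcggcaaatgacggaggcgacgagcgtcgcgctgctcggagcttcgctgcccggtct
The Stra8 promoter held AGGTCA beginning 194 and 38 bases before the start, and no CNCCTCAG. AGGTCA was in 14% of 32851 such windows. The variants AGTTCA (in 11.8% of windows), GGGTCA (in 11.6%) and GGTTCA (in 8.85%) were searched as well and were not in it, and 38.6% of windows held any of these. CNCCTCAG began 44 bases before the start in Gm4969, 41 bases in Prdm9 and 199 bases in Trank1, against 6.42% of windows with a match anywhere. These matches are letters in a window and not measured binding.

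An ATAC-seq region touched, by 1 base or more, the windows of all 4 of these promoters in every library of cKIT+ spermatogonia. A window at another RefSeq start of Prdm9 (chr17:15563282-15563581) had no region in any library and no CNCCTCAG. The authors' fold enrichment at the Stra8 promoter was 3.13 and 3.82 in the control libraries and 3.19, 3.81 and 3.45 in the cKO libraries. At Gm4969 it was 4.38 and 5.03 in control and 5.13, 5.54 and 4.54 in cKO, and at Prdm9 8.53 and 9.53 in control and 6.93, 8.33 and 9.42 in cKO. The control and cKO values overlapped at each of these genes. Trank1 had a fold of 5.62 and 5.59 in control and of 4.2, 5.89 and 5.27 in cKO, so its values overlapped too. No H3K27me3 region touched the promoters of Stra8, Gm4969 or Prdm9 in any of the 5 libraries, and Trank1 had one in cKO libraries 2 and 3 only. These are sorted cells of a broader kind than the Stra8-positive cells, and the number of regions per list ran from 14635 to 40497 for ATAC-seq and from 11118 to 18494 for H3K27me3. The names of the H3K27me3 lists mark all as downsampled except that of cKO library 2. A missing region therefore carries less weight than a present one.

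The libraries held 229882646 UMIs in the control and 172368722 in the cKO over all barcodes listed. Passing barcodes had a median of 8462 and 8576 UMIs. The Stra8-positive cells were shallower, with a median of 5597 UMIs and 2817 genes in control and 6131.5 UMIs and 2867.5 genes in cKO, and their range ran from 3014 to 63968 and from 3024 to 42127 UMIs. Their summed depth was 1746229 and 686799 UMIs, so the same level rests on far fewer molecules in the cKO. Mitochondrial genes took a median of 5.07% of their UMIs in control and 6.61% in cKO, against 0.536% and 0.419% over all passing barcodes. The libraries shared 30 passing barcode sequences and no Stra8-positive one. RNA in barcodes with 1 to 100 UMIs, which mostly hold free RNA, contained 33 Stra8 UMIs of 7204052 in control and 29 of 6686477 in cKO.

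Levels below are in CPM, the UMIs of a gene divided by all UMIs of the cells named and multiplied by 1000000. Since every value is a share of the RNA, fewer molecules of one gene and more of all others cannot be told apart. Stra8 itself, which chose the cells and is given only as a description, stood at 708 CPM in control and 697 in cKO, with a median of 4 UMIs per cell in both and a highest cell of 28 and 23. The Stra8-positive cells held 87.05% of all Stra8 UMIs of passing barcodes in control and 82.59% in cKO. Just outside the rule lay 184 control and 101 cKO cells with 1 Stra8 UMI, and just inside it 60 and 21 cells with 2. Cells with 1 UMI carried Tex15, a meiotic recombination gene, at 410 CPM in control and 151 in cKO, those with 2 UMIs at 807 and 695, and those with no Stra8 at 63.9 and 47.7. The protamine gene Prm1 went the other way in both libraries. It stood at 26440 CPM without Stra8, 20300 with 1 UMI and 6519 with 2 in control, and at 26030, 15270 and 8955 in cKO.

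The label of cells entering meiosis was checked against genes that the rule did not use. Sycp3, a protein of the chromosome axis, had a UMI in 95.87% of the control and 96.67% of the cKO cells, against 46.92% and 43.33% of all other cells. That name is used for the 9034 control and 7078 cKO cells without Stra8 outside the spermatogonial and prophase gates defined below. Their median depth was 7850 and 8020.5 UMIs. In the prophase gate Sycp3 stood at 661 and 590 CPM, near the 714 and 604 of Stra8-positive cells, so it does not set these 2 groups apart. Tex15 was seen in 97.25% and 94.44% (28.26% and 24.81% of all other cells). Rhox13, an X-linked germ-cell gene, was seen in 47.25% and 44.44% (1.782% and 1.483%). Undifferentiated spermatogonial genes summed to 178 CPM in control and 239 in cKO Stra8-positive cells. That was below the spermatogonial gate (305 and 365) but above the prophase gate (105 and 97.4) and all other cells (66.3 and 69.6). Zbtb16, Gfra1, Lin28a and Nanos3 of this list also define those gates. The order of these sums is thus partly built in and is no check of the label. Of 19 listed, 7 reached 10 CPM in either library. Nanos2 and Eomes had no UMI, but were at most 0.83 CPM in the spermatogonial gate as well. Genes of later stages were present as well, with Prm1 in 100% of Stra8-positive and of all other cells of both libraries.

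The 20 genes that stood out most in Stra8-positive cells, ranked by the smaller of the ratios to cells without Stra8 in the control and cKO libraries, are descriptive only. They were led by the histone genes Hist1h1a, Hist1h2ap and Hist1h2bm, which are made during DNA replication, and also held Hist1h2bj. Hist1h1a stood at 1005 CPM in control Stra8-positive cells and 15.5 in control cells without Stra8. Others were the retinoic acid carrier Crabp1, the cyclin Ccnd2, the sister-chromatid cohesion enzyme Esco2, the replication factor Atad5, the recombination-hotspot enzyme Prdm9 and the X-linked genes Mageb4, Map7d2, Zrsr2, Bclaf3, Gm15262 and Rhox13. The rest were Auts2, P3h3, Rel, Elavl2 and Sgpl1.

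Stages within the Stra8-positive cells were read from 7 spermatogonial genes (Sall4, Sohlh1, Sohlh2, Zbtb16, Gfra1, Lin28a and Nanos3) and 6 meiotic prophase genes (Dmc1, Prdm9, Meiob, Rad51ap2, Ccnb3 and Spo11). At least 2 spermatogonial UMIs were found in 57 of 218 control cells, 26.15% (20.44 to 32.51), and in 36 of 90 cKO cells, 40.0% (29.81 to 50.87). At least 3 prophase UMIs were found in 35.78% of control cells (29.42 to 42.53) and in 25.56% of cKO cells (16.94 to 35.84). Cells that met both were 4.587% and 1.111%, and cells that met neither 42.66% and 35.56%. The cKO cells thus had the larger spermatogonial and the smaller prophase share, with intervals that overlap in both cases. With each cell thinned to 3000 UMIs the spermatogonial shares were 11.47% and 21.11% and the prophase shares 17.89% and 14.44%.

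**Figure D1:**
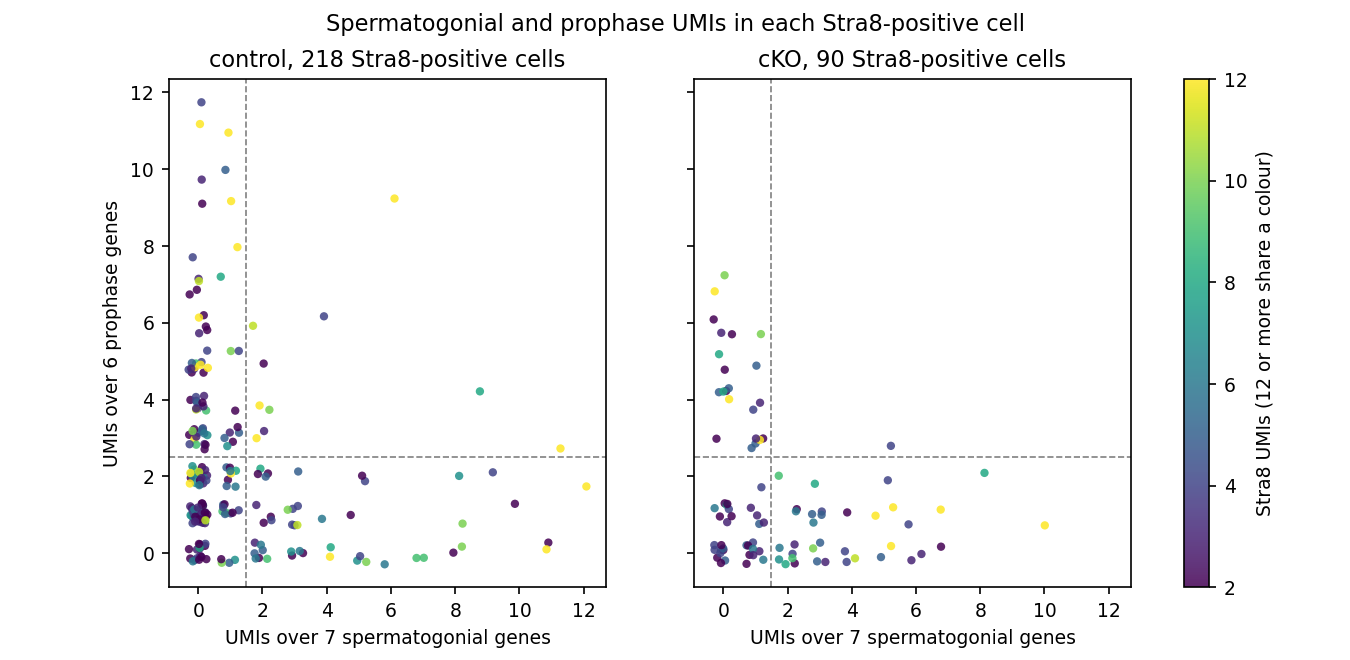
UMIs over the 7 spermatogonial genes (x axis) against UMIs over the 6 prophase genes (y axis) in each Stra8-positive cell of the control (left, 218 cells) and cKO (right, 90 cells) library; each point is 1 cell, jittered, coloured by its Stra8 UMIs, and dashed lines mark the thresholds of 2 and 3 UMIs. Most cells lie along one axis or near the origin, and 4.587% of control and 1.111% of cKO cells lie past both lines.

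Neighbouring cells without Stra8 UMIs were used for comparison in a spermatogonial gate (at least 2 spermatogonial and fewer than 3 prophase UMIs, 112 control and 92 cKO cells) and in a prophase gate (at least 3 prophase and fewer than 2 spermatogonial UMIs, 1633 and 1083 cells). The spermatogonial gate held RNA of other cells unevenly, with Leydig-cell genes at 1251 CPM in control and 11.6 in cKO and elongating-spermatid genes at 73610 and 48960, and their part in its values was not tested. DNA replication genes summed to 2764 CPM in control and 3183 in cKO Stra8-positive cells, against 1269 and 1324 in the spermatogonial gate and 1160 and 1093 in the prophase gate. Strand exchange genes likewise were highest in the Stra8-positive cells, at 2311 and 1692 CPM, against 1158 and 1030 in the prophase gate. Genes of later spermatocytes (such as Ldhc and Hspa2) were lowest there, at 4699 and 3171 CPM, against 12230 and 12460 in the prophase gate. X-linked genes took 1.517% of UMIs in control and 1.593% in cKO Stra8-positive cells, 1.422% and 1.246% in the spermatogonial gate, and 0.3091% and 0.3474% in the prophase gate, the stage at which the X chromosome is known to be silenced. In all other cells the share was 1.094% and 1.011%. The Stra8-positive share was thus above the others, and in cKO its interval (1.563 to 1.623) lay above that of the spermatogonial gate (1.227 to 1.266).

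**Figure D2:**
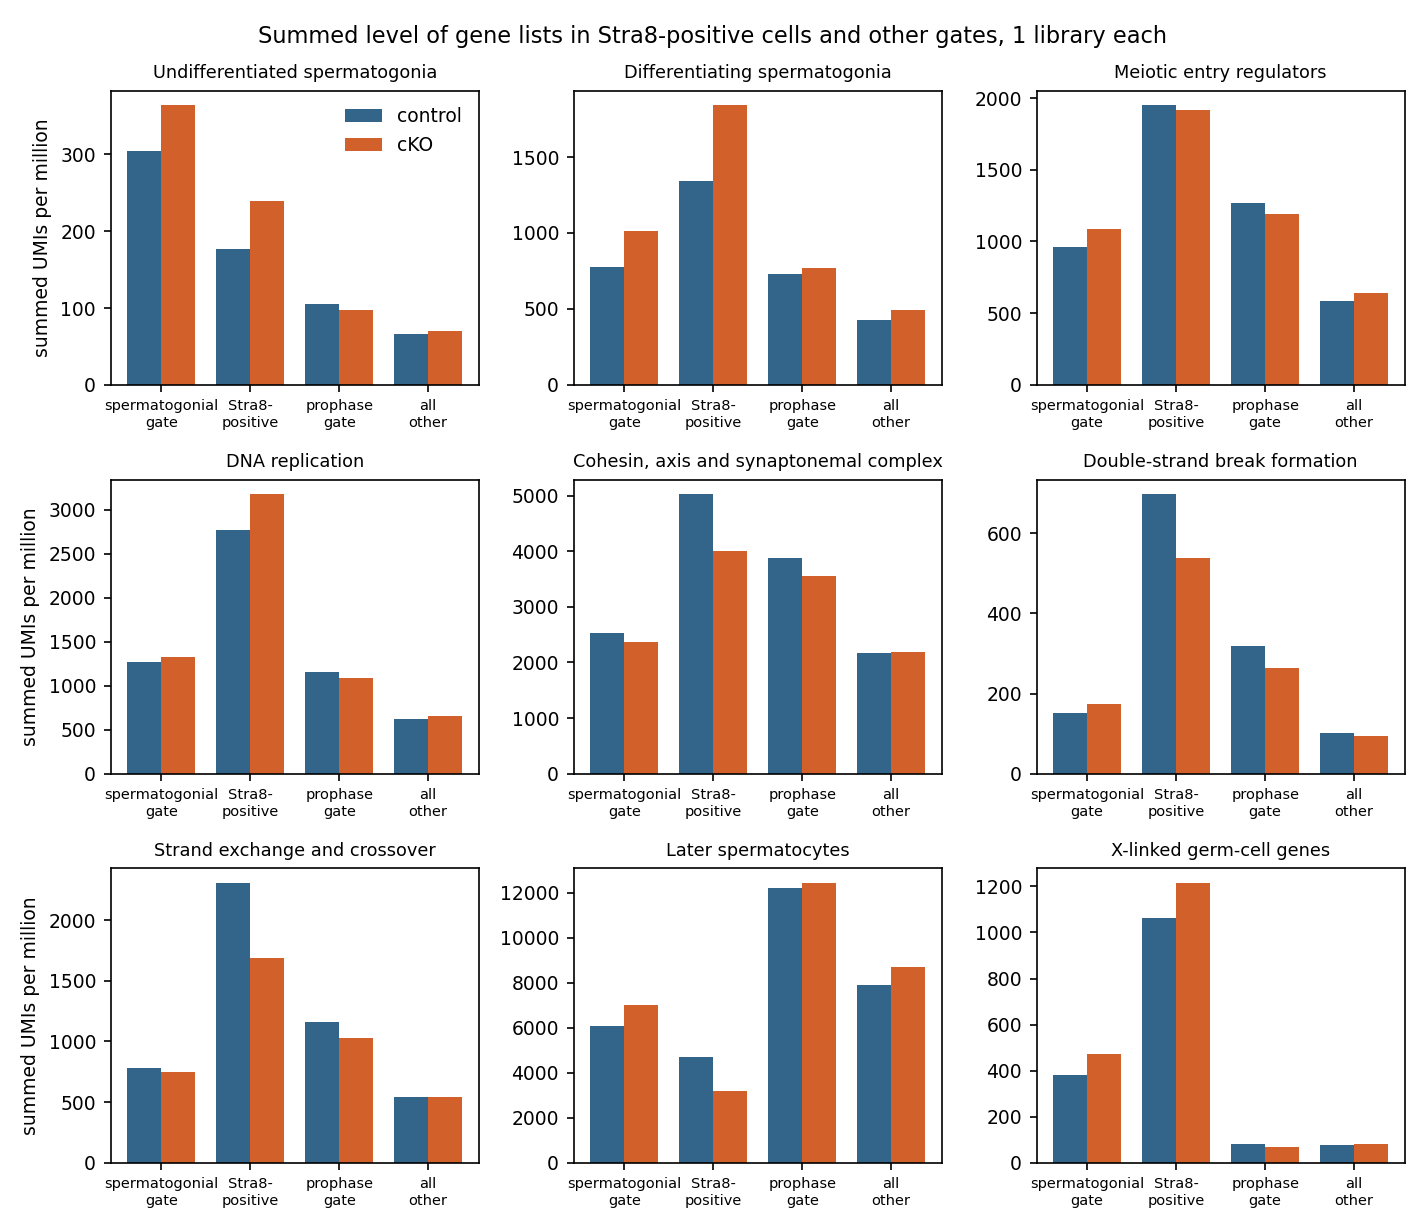
Summed CPM (y axis, bars from 0) of 9 gene lists in the spermatogonial gate, the Stra8-positive cells, the prophase gate and all other cells without Stra8, for the control (blue) and cKO (orange) library, 1 library each. DNA replication and strand exchange genes are highest in Stra8-positive cells of both libraries, and X-linked germ-cell genes are near 80 CPM or lower in the prophase gate.

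Fewer of the passing cells were Stra8-positive in the cKO. The share was 1.95% in control (1.702 to 2.223) and 1.066% in cKO (0.8579 to 1.309), a log2 ratio of -0.87 (-1.24 to -0.51), or 1.83-fold. Among the Stra8-positive, spermatogonial-gate and prophase-gate cells together it was 218 of 1963 in control, 11.11% (9.749 to 12.58), and 90 of 1265 in cKO, 7.115% (5.759 to 8.673), a log2 ratio of -0.64. The prophase gate gave 1633 and 1083 of these cells, at a median of 20957 and 19988 UMIs. Its later-spermatocyte sums were the highest of the gates, so this is not a share of early germ cells alone. The direction of the share of passing cells held when barcodes with 2000 or more UMIs were admitted, but the log2 ratio was then -0.42, and -0.60 at 5000 or more. Neither the variation between testes nor the cell recovery of each library was measured, so the genotype and the library cannot be told apart.

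Kdm6a was checked first among the genes. It stood at 27.5 CPM (48 UMIs) in control and 5.82 (4 UMIs) in cKO Stra8-positive cells, a log2 ratio of -2.24 (-4.17 to -0.79). A UMI was seen in 15.6% of control and 4.44% of cKO cells, and in 1.33% and 0.636% of all other cells. In cells without Stra8 the log2 ratio was -1.58. The direction goes with the labels, but a 3' tag may lie outside the deleted part, and free RNA held Kdm6a at 4.30 CPM in control and 6.88 in cKO. Its Y-linked relative Uty had 17 and 4 UMIs (9.74 and 5.82 CPM), too few to place the ratio on either side of 0 (-0.74, -2.77 to 0.88). The other H3K27 demethylase gene, Kdm6b, stood at 39.5 and 52.4 CPM (0.41, -0.22 to 1.01). Ezh2, the methyltransferase that writes the mark, had 158 and 117 CPM (-0.44, -0.82 to -0.08). Its complex partners Suz12 (170 and 169), Rbbp4 (194 and 191) and Rbbp7 (131 and 153) were closer between the libraries, but the core partner Eed was higher in cKO, at 56.1 and 96.1 CPM (0.78, 0.30 to 1.24). Of 12 genes of H3K27 demethylation and methylation at 10 CPM or more, only Kdm6a was past 2-fold, a share near the 5.61% lower and 4.25% higher of all 10460 genes at that level, and the median log2 ratio was -0.01.

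Among the regulators of meiotic entry, Gm4969 (Meiosin) had the largest difference. It stood at 73.9 CPM (129 UMIs) in control and 26.2 (18 UMIs) in cKO, a log2 ratio of -1.50 (-2.29 to -0.78). The share of Stra8-positive cells with a Gm4969 UMI was 43.12% (36.45 to 49.98) in control and 15.56% (8.774 to 24.72) in cKO, against 0.4649% and 0.0989% of all other cells, so the intervals did not overlap. The values by Stra8 UMIs, which the rule used, are a description only. Control cells with 1, with 2, with 3 to 5 and with 6 or more Stra8 UMIs had 25, 59.0, 92.7 and 69.3 CPM of Gm4969, and cKO cells 4.02, 24.0, 29.6 and 23.3, from 5, 3, 9 and 6 UMIs, with intervals that overlap at 2 Stra8 UMIs (39.2 to 85.3 and 4.94 to 70.0). In cells with no Stra8 UMI it stood at 0.775 and 0.155 CPM, with a log2 ratio of -2.32, where free RNA held it at 0.555 and 0.748.

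The genes next to Gm4969 on chromosome 7 gave mixed ratios. Of 22 other genes within 500000 bases at 10 CPM in either library, 11 were below 0, 2 were past 2-fold lower, 2 past 2-fold higher, and the median log2 ratio was 0.05. Over all 10460 genes at that level, 5.61% were past 2-fold lower, 4.25% past 2-fold higher, and the median was -0.04. The splicing-related gene Clasrp was lower by as much as Gm4969, at 90.5 CPM in control and 27.7 in cKO (-1.71, -2.48 to -1.02), and by -1.69 in cells without Stra8. Klc3, a kinesin light chain gene, had 30.9 and 14.6 (-1.09). The 2 neighbours past 2-fold higher, Nkpd1 and Zfp296, had 6 and 5 UMIs in control and 7 and 8 in cKO. Whether this stretch of chromosome 7 differs between the libraries, apart from Kdm6a, was not tested, and the Gm4969 ratio is read with that limit.

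Of the 10 entry regulators measured, Gm4969 included, all at 10 CPM or more, Gm4969 alone was past 2-fold lower and none was higher, near the 5.61% and 4.25% of all genes. Their median log2 ratio was -0.26, against -0.04 for all genes, but 0.14 with cells thinned to 3000 UMIs. Meioc, which binds YTHDC2, stood at 352 CPM in control and 204 in cKO (-0.79, -1.06 to -0.52, and -0.56 in cells without Stra8). Ythdc2 itself had 115 and 78.6 (-0.54, -1.0 to -0.10, and -0.54 in cells without Stra8), and the cell cycle inhibitor Rb1 had 47.0 and 23.3 (-1.01, -1.88 to -0.23), with 16 UMIs in cKO. Rbm46 had 159 and 175 CPM (0.13, -0.19 to 0.45). Dazl, the licensing factor, was higher in cKO, at 759 and 954 CPM (0.33, 0.19 to 0.46), but stood at -0.13 when cells with 1 Stra8 UMI were admitted. The transcription factors that act before Stra8 in spermatogonia had intervals that reached or crossed 0: Sohlh1 had 65.9 and 90.3 CPM (0.46, -0.01 to 0.91) and Sohlh2 29.2 and 23.3. Dmrt1, which holds back meiosis in mitotic spermatogonia, had 92.8 and 117 (0.33, -0.08 to 0.72). Dmrtb1, which coordinates the switch from mitosis to meiosis, had 262 and 227 (-0.21, -0.48 to 0.06). Free RNA held Dmrtb1 at 446 and 443 CPM and all other cells at 374 and 448, above these levels.

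Retinoic acid receptors were too thinly sampled for most comparisons. Rara had 23 control and 9 cKO UMIs, at 13.2 and 13.1 CPM. Rarg had 7.45 and 13.1 CPM, Rarb 4.58 and 1.46, Rxra 10.9 and 4.37, and Rxrg 1 UMI in each library. Rxrb was the exception, at 18.3 CPM (32 UMIs) in control and 48.1 (33 UMIs) in cKO (1.39, 0.64 to 2.14). Of 4 receptors at 10 CPM or more, 1 was past 2-fold higher (Rxrb) and 1 lower (Rxra), against 4.25% and 5.61% of all genes. The Rxra ratio rests on 19 and 3 UMIs (-1.32, -3.72 to 0.45). In the spermatogonial gate Rxrb stood at 17.2 and 24.1 CPM. Of the genes that make, carry or break down retinoic acid, 5 of 14 were at 10 CPM or more, and none of these was past 2-fold. Crabp1, which carries retinoic acid in the cell, had 98.5 and 156 CPM (0.66, 0.30 to 1.02). The enzymes Aldh1a2 and Rdh11 had 57.8 and 62.6, and 81.3 and 56.8 CPM, with intervals that crossed 0, and the breakdown enzyme gene Cyp26c1 had no UMI.

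Spermatogonial genes differed in both directions. Of 12 differentiating-spermatogonia genes at 10 CPM or more, 2 were past 2-fold higher and none lower (4.25% and 5.61% of all genes), with 4 below 0 and a median log2 ratio of 0.29. Sall4, a spermatogonial transcription factor that was also among the stage genes, had 26.9 and 56.8 CPM (1.08, 0.43 to 1.72). Uchl1, a ubiquitin hydrolase of spermatogonia, had 365 and 767 (1.07, 0.90 to 1.24), and 137 and 252 in the spermatogonial gate. Kit, the receptor that marks differentiating spermatogonia, had 98.5 and 114 CPM (0.21, -0.20 to 0.60), with a sign that turned in 3 of 12 settings (lowest -0.29), and Dnmt1, which maintains DNA methylation, 163 and 195 (0.26, -0.05 to 0.56). Of 7 undifferentiated-spermatogonia genes at level, 1 was past 2-fold lower and none higher, with a median of 0.61 that rests on few UMIs and was -1.13 in cells with 3 or more prophase UMIs. Id4, which was lower, had 52 and 8 UMIs (-1.35, -2.64 to -0.27), Foxo1 43 and 34 (1.01, 0.31 to 1.69), Zbtb16 34 and 23, and Sdc4 79 and 38. The Id4 levels of 29.78 and 11.65 CPM were below those of free RNA (33.45 and 30.21) and of the prophase gate (86.63 and 81.51).

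Genes of DNA replication, which spermatocytes express before they enter prophase, were past 2-fold about as often as all genes. Of 32, 2 were past 2-fold lower and 2 higher, against 5.61% and 4.25% of all genes, with a median of 0.15 against -0.04. Hells, a chromatin remodeller, had 544 and 692 CPM (0.35, 0.19 to 0.51) and the DNA ligase Lig1 174 and 223 (0.36, 0.07 to 0.65). Slbp, which binds histone mRNA, had 233 and 277 (0.25, -0.01 to 0.50), and the sliding clamp Pcna 148 and 147. The helicase subunit Mcm2 (54 and 53 UMIs, 1.32) and the licensing factor Cdt1 (21 and 26 UMIs, 1.65) were past 2-fold higher, and Gins3 (49 and 8 UMIs, -1.27) and Cdc6 (43 and 8 UMIs, -1.08) lower. None of 14 genes of mitotic G2 and M phase was past 2-fold, with a median of 0.21. Among them Hmgb2 had 1209 and 1421 CPM, Cenpf 739 and 882, Top2a 572 and 508 and Mki67 264 and 269.

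Most meiotic chromosome genes had log2 ratios between 0 and -1. Of 15 genes of cohesin, axis and synaptonemal complex, 12 were below 0, against 53.2% of all 10460 genes, with a median log2 ratio of -0.45, against -0.04. Only 1 was past 2-fold lower and none higher, a share near the 5.61% of all genes. Sycp1, the transverse filament of the synaptonemal complex, had 939 CPM in control and 587 in cKO (-0.68, -0.84 to -0.52), and its central-element partner Tex12 128 and 59.7 (-1.10, -1.62 to -0.62). The axis proteins Sycp2 (318 and 185, -0.78) and Hormad1 (277 and 169, -0.71) were lower too. The meiotic cohesin subunit Rec8 (32.6 and 52.4, 0.68, 0.04 to 1.31) and the ATPase Trip13, which removes HORMAD proteins from synapsed axes (55.0 and 80.1, 0.54, 0.04 to 1.04), were higher, and these 4 genes are named after their values were seen. Sycp3 had 714 and 604 (-0.24, -0.40 to -0.08) and the meiotic cohesin Smc1b 870 and 776 (-0.17, -0.31 to -0.02), while Smc3, the cohesin subunit shared with mitosis, had 456 and 459. Hormad1 was seen in 75.69% of control and 53.33% of cKO cells, and Sycp3 in nearly all of both.

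Genes of double-strand break formation and of strand exchange followed. Of 8 break-formation genes, 2 were past 2-fold lower and 1 higher (5.61% and 4.25% of all genes), with a median of -0.43. Spo11, the enzyme that cuts DNA, had 59 and 10 UMIs (-1.21, -2.35 to -0.24), and Ccdc36 (Iho1), which brings the break machinery to the axis, 66 and 8 (-1.70, -2.97 to -0.64). Rec114, of the same machinery, was higher at 62 and 50 UMIs (1.04, 0.47 to 1.60). Zcwpw1, a reader of the marks that PRDM9 writes, had 334 and 246 CPM (-0.44, -0.70 to -0.19), Ankrd31 139 and 94.6 (-0.55, -0.97 to -0.15) and Prdm9 80.2 and 59.7 (-0.43, -0.96 to 0.09). Of 19 strand exchange and crossover genes at level, 17 were below 0, 1 was past 2-fold lower (again near the share of all genes) and none higher, with a median of -0.51. Tex15 had 992 and 693 CPM (-0.52, -0.67 to -0.37) and Brca2, which loads recombinases on DNA, 301 and 211 (-0.51, -0.79 to -0.25). Shoc1, a crossover factor, had 69 and 12 UMIs (-1.18, -2.20 to -0.28), whereas the Dmc1 cofactor Psmc3ip had 175 and 153 CPM (-0.19, -0.53 to 0.13) and the X-linked Tex11 106 and 96.1. Several of these genes were about as low in cKO cells without Stra8, where the log2 ratio was -0.42 for Tex15, -0.51 for Brca2 and -0.42 for Zcwpw1. The list medians there, over the same genes, were -0.21 for strand exchange, -0.30 for break formation and -0.13 for the axis. The difference between Stra8-positive and other cells was not tested.

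**Figure D3:**
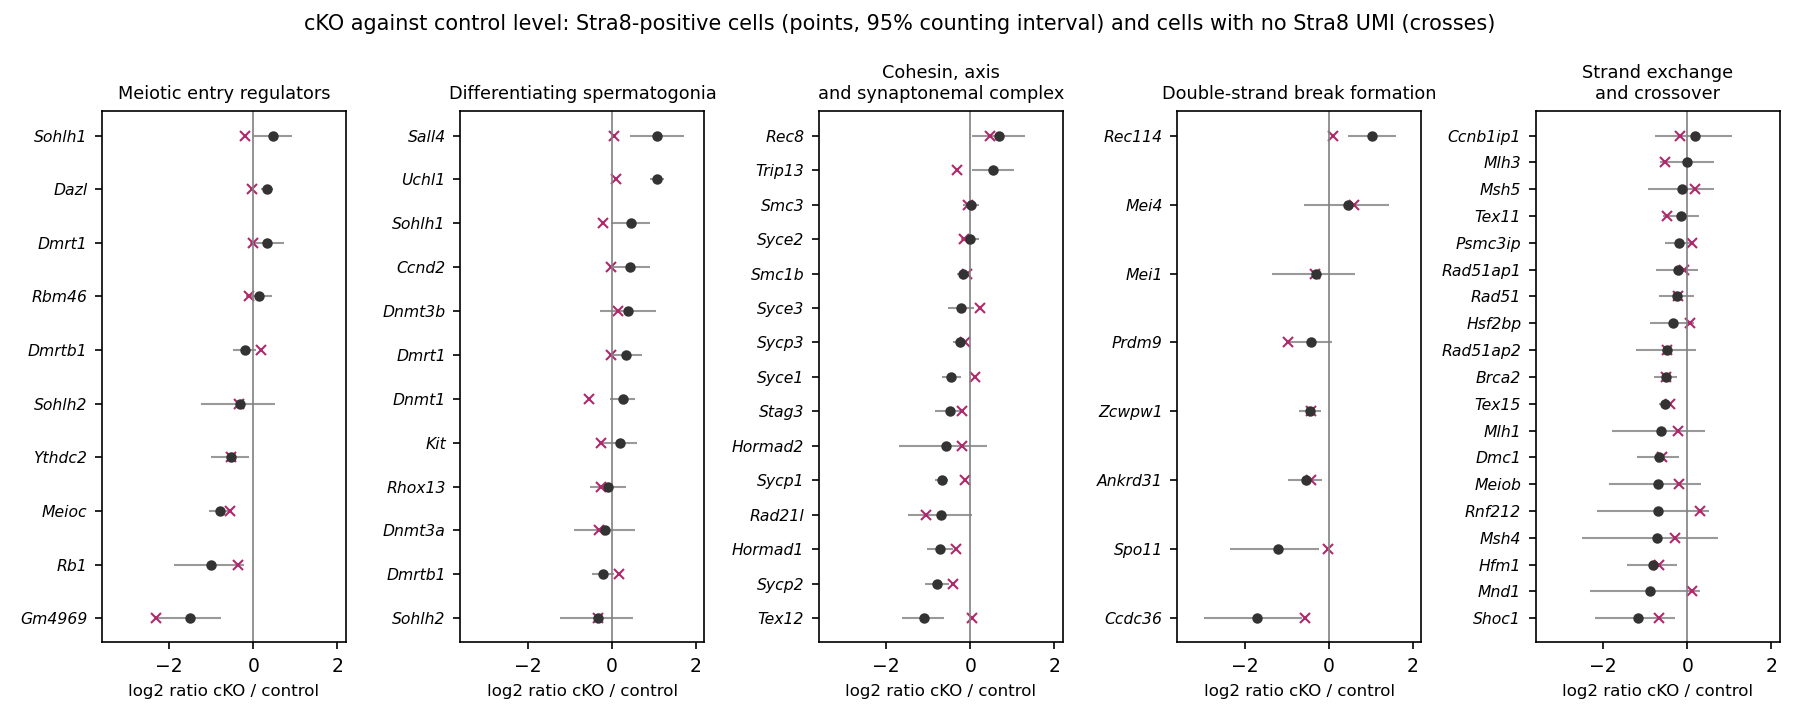
Log2 ratio of CPM, cKO over control (x axis), for each gene at 10 CPM or more of 5 lists (y axis, 1 row per gene); points with bars are Stra8-positive cells with the 95% counting interval, and crosses are cells with no Stra8 UMI. Gm4969 lies at -1.50, most axis and strand exchange genes lie between 0 and -1, and the differentiating-spermatogonia genes lie mostly above 0.

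The size of these differences varied with the prophase UMIs of the cells. Because the cKO had fewer cells with 3 or more prophase UMIs, the cells were split at that value. This left 140 control and 67 cKO cells under it and 78 and 23 at or above it. Of the cells under it, 47 control and 35 cKO cells had at least 2 spermatogonial UMIs. The split therefore does not match the libraries for stage, and the part of this in the ratios was not tested. Under 3 prophase UMIs, Gm4969 had 68.2 CPM in control and 13.8 in cKO (-2.30, -3.67 to -1.18) and Meioc 287 and 123 (-1.23, -1.65 to -0.83). Hormad1 had 212 and 98.9 (-1.10, -1.58 to -0.65), Sycp1 786 and 473 (-0.73, -0.95 to -0.52) and Tex15 944 and 572 (-0.72, -0.92 to -0.53). At 3 or more, the levels of Meioc were 433 and 431 (-0.01, -0.38 to 0.35), of Hormad1 357 and 364 (0.03, -0.38 to 0.42) and of Tex15 1052 and 1032 (-0.03, -0.26 to 0.20). Sycp1 remained lower there, at 1130 and 905 (-0.32, -0.57 to -0.08), and Sycp2 had 429 and 337 (-0.35, -0.77 to 0.05).

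Among the cells with 3 or more prophase UMIs, Sycp3 was higher in cKO, at 931 and 1181 CPM (0.34, 0.12 to 0.57), as was Smc1b at 986 and 1198 (0.28, 0.06 to 0.50). Under 3 both were lower in cKO, Sycp3 at 539 and 398 (-0.44, -0.68 to -0.20) and Smc1b at 777 and 625 (-0.32, -0.51 to -0.12). At 3 or more Gm4969 had 80.9 and 60.7 CPM (-0.41, -1.49 to 0.52), from 11 cKO UMIs. On that side the deepest cell held 63968 of 778870 UMIs in control and 37278 of 181183 in cKO, so single cells weigh on these levels. The median log2 ratio of the axis list was -0.44 under 3 prophase UMIs and 0.07 at or above it, that of the strand exchange list -0.72 and 0.10, and that of the break-formation list -0.65 and 0.13. With the genes that set the split left out, an alternative chosen after seeing the data, the strand exchange medians were -0.68 and 0.04 and the break-formation medians -0.65 and 0.19, and the axis list holds none of them. The split sorts cells by meiotic RNA, so its sides are not independent of the lists. The elongating-spermatid list, taken up below, had a log2 ratio of -0.26 under 3 prophase UMIs and 0.33 at or above it. Round-spermatid genes had -0.44 and -1.23, later-spermatocyte genes -0.35 and -0.46 and Sertoli genes -0.47 and -0.63, and the part of these lists in the differences was not tested. The values of Dmc1 and Prdm9 on either side are not read, since both set the split. The difference between the cells on either side was not tested, since each side has 1 library per genotype.

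**Figure D4:**
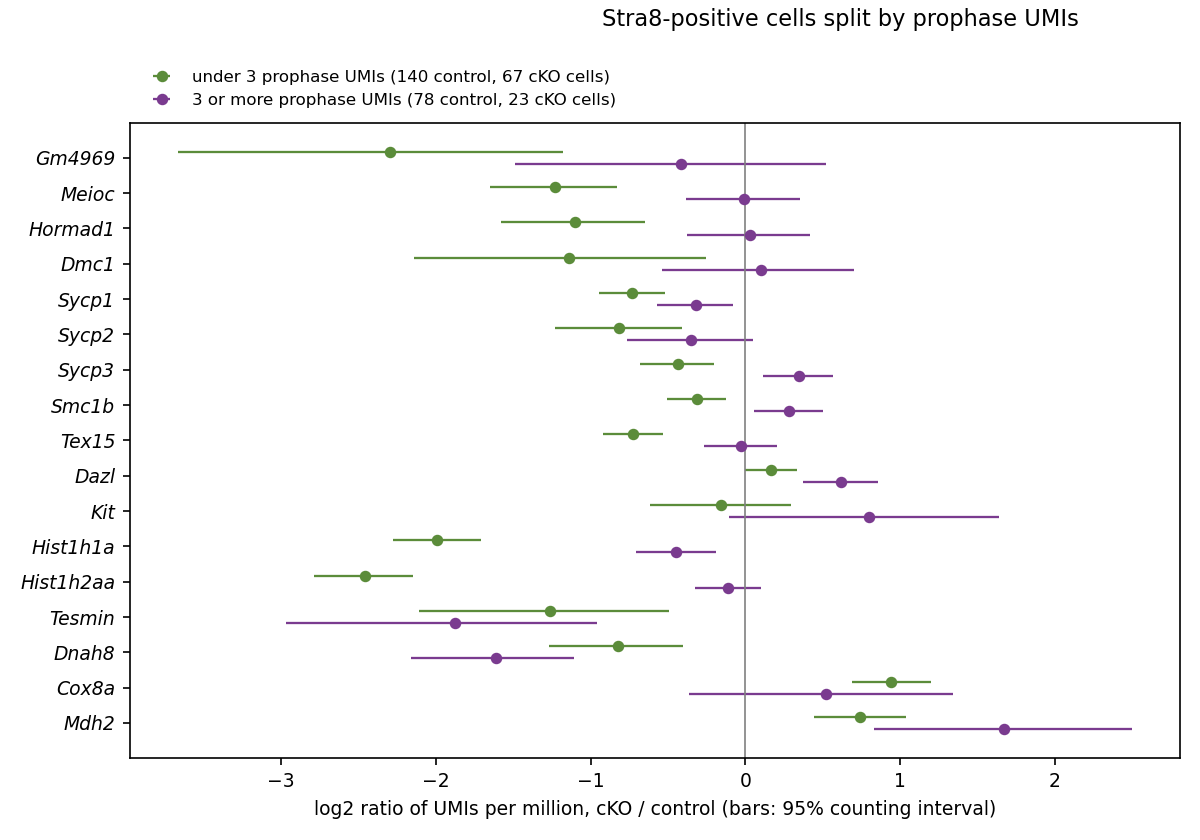
Log2 ratio of CPM, cKO over control (x axis), for 17 genes (y axis) in Stra8-positive cells with under 3 prophase UMIs (green, 140 control and 67 cKO cells) and with 3 or more (purple, 78 and 23 cells); bars are 95% counting intervals. Meioc, Hormad1, Tex15 and Hist1h2aa lie well below 0 in the first and near 0 in the second, while Tesmin and Dnah8 lie below 0 in both.

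Across the 2450 genes with at least 100 CPM in either library, 47 were at least 2-fold lower in the cKO cells (1.92%) and 22 at least 2-fold higher (0.898%), with 1 CPM added to each level. The median log2 ratio was -0.08. With cells of 1 Stra8 UMI admitted the counts were 31 lower and 1 higher, and with cells thinned to 3000 UMIs 132 and 95. Of the 47, 38 had the same sign in cells without Stra8 and 2 were past 2-fold there, and of the 22 the numbers were 16 and 0. Of all tested genes below 0, 61.4% had the same sign in cells without Stra8, and of those above 0, 62.7%. Chromosome 7 carried 7.08% of the tested genes with a known chromosome, 6 of the 47 lower genes (12.8%) and 4 of the 22 higher genes (18.2%).

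The 12 genes lowest in cKO held 4 histone genes. Hist1h1a, a linker histone, had 1005 CPM in control and 386 in cKO (-1.38), Hist1h1c 195 and 75.7 (-1.36) and Hist1h4c 103 and 37.9 (-1.45). Hist1h2aa, a testis histone H2A gene, had 1133 and 454 (-1.32, -1.50 to -1.15). Chosen after these values were seen, all 67 genes of the histone clusters gave 30 at 10 CPM or more, 23 of them below 0 and 9 past 2-fold lower, with none higher, against 53.2% below 0 and 5.61% past 2-fold lower of all 10460 genes. They summed to 4406 CPM in control and 2528 in cKO (-0.80, -0.88 to -0.73), but Hist1h2ap was higher, at 422 and 594 (0.49, 0.32 to 0.67). Under 3 prophase UMIs the ratios were -1.99 for Hist1h1a and -2.46 for Hist1h2aa, and at 3 or more they were -0.45 and -0.11. In cells without Stra8 the log2 ratios were -1.30 for Hist1h1a, -1.22 for Hist1h1c, -0.98 for Hist1h2aa and -0.63 for Hist1h4c. In the spermatogonial gate Hist1h1a had 157 CPM in control and 56.6 in cKO, Hist1h2aa 134 and 44.1, and Hist1h1c 29.15 and 6.65. Hist1h4c had 7.29 and 8.32 there, from 11 and 10 UMIs. These differences were thus not limited to Stra8-positive cells.

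The other 8 genes were of varied function. Tesmin, a regulator of male germ cells, had 135 CPM in control and 39.3 in cKO (-1.78, -2.41 to -1.20), the axonemal dynein Dnah8 371 and 135 (-1.45, -1.78 to -1.14), and the sperm fibrous sheath gene Fsip2 differed by -1.35. Over 12 alternative settings Tesmin kept its sign but ran from -2.1 to -0.37, and Dnah8 from -1.63 to -0.86, so the size of both ratios depends on the setting. The kinesin Kif2b (-1.36), the calpain inhibitor Cast (-1.39), the nucleoporin Nup98 (-1.35), the elongation factor Aff4 (-1.32) and 1700129C05Rik (-1.47) completed the 12. Tesmin stood at 377 CPM in control prophase-gate cells and Dnah8 at 1365, above their Stra8-positive levels. Over all 47 lower genes, 34 (72.3%) had a higher control level in cells without Stra8 than in Stra8-positive cells, against 40.9% of all genes tested. Of the 22 higher genes, 0 had a higher cKO level in cells without Stra8, against 42.4% of all genes tested. Choosing genes that are high in the cKO Stra8-positive cells itself lowers that count.

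Spermatid RNA was measured in the same cells. A list of 10 elongating-spermatid genes summed to 25100 CPM in control and 24360 in cKO Stra8-positive cells, 46340 and 38740 in free RNA and 108500 and 99120 in all other cells. It took a median of 1.55% of a control and 0.846% of a cKO cell's UMIs, and over 5% in 25 control and 10 cKO cells, which held 13.6% and 19.1% of the UMIs. All 10 round-spermatid genes were below 0, 2 of them past 2-fold (Acr, -1.14, and Spaca4, -1.12), with a median of -0.73, and 10 of 12 later-spermatocyte genes were below 0, 1 past 2-fold (Piwil1, -1.08), against the same 53.2% and 5.61% of all genes. A doublet caller marked 5.55% and 5.67% of passing barcodes, 23 control and 8 cKO Stra8-positive cells among them. Without the cells over 5%, 155 genes were lower and 37 higher, with 42 of the 47 and 21 of the 22 kept, and 91.6% of the lower genes were higher in control cells without Stra8, against 35.9% of all genes tested then. Without the called doublets, 166 were lower and 44 higher. The part of spermatid RNA or of joined cells in the lower genes was not tested.

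The 12 genes highest in cKO were led by Olfr655, annotated as an olfactory receptor, at 68.7 CPM in control and 221 in cKO (1.69, 1.33 to 2.05). Its ratio in cells without Stra8 was -0.28. In the spermatogonial gate Olfr655 was lower in cKO, at 57.6 CPM (87 UMIs) in control and 12.5 (15 UMIs) in cKO. The 12 included Alad of haem synthesis (44.7 and 109, 1.29), the respiratory chain subunit Cox8a (178 and 403, 1.18, 0.94 to 1.42), the malate dehydrogenase Mdh2 (136 and 297, 1.12, 0.85 to 1.40) and the aldo-keto reductase Akr7a5 (53.3 and 121, 1.18). The others were the RNase P and MRP subunit Pop5 (1.5), the zinc finger gene Zfp60 (1.43), the translation repressor Eif4ebp1 (1.31), 1110008P14Rik (1.25), the centromeric histone Cenpa (1.23), the collagen hydroxylase relative P3h3 (1.22) and Arhgdig (1.18). P3h3 was also among the 20 genes that mark the Stra8-positive cells, and of these 12 it had the largest ratio in cells without Stra8, at 0.68.

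**Figure D5:**
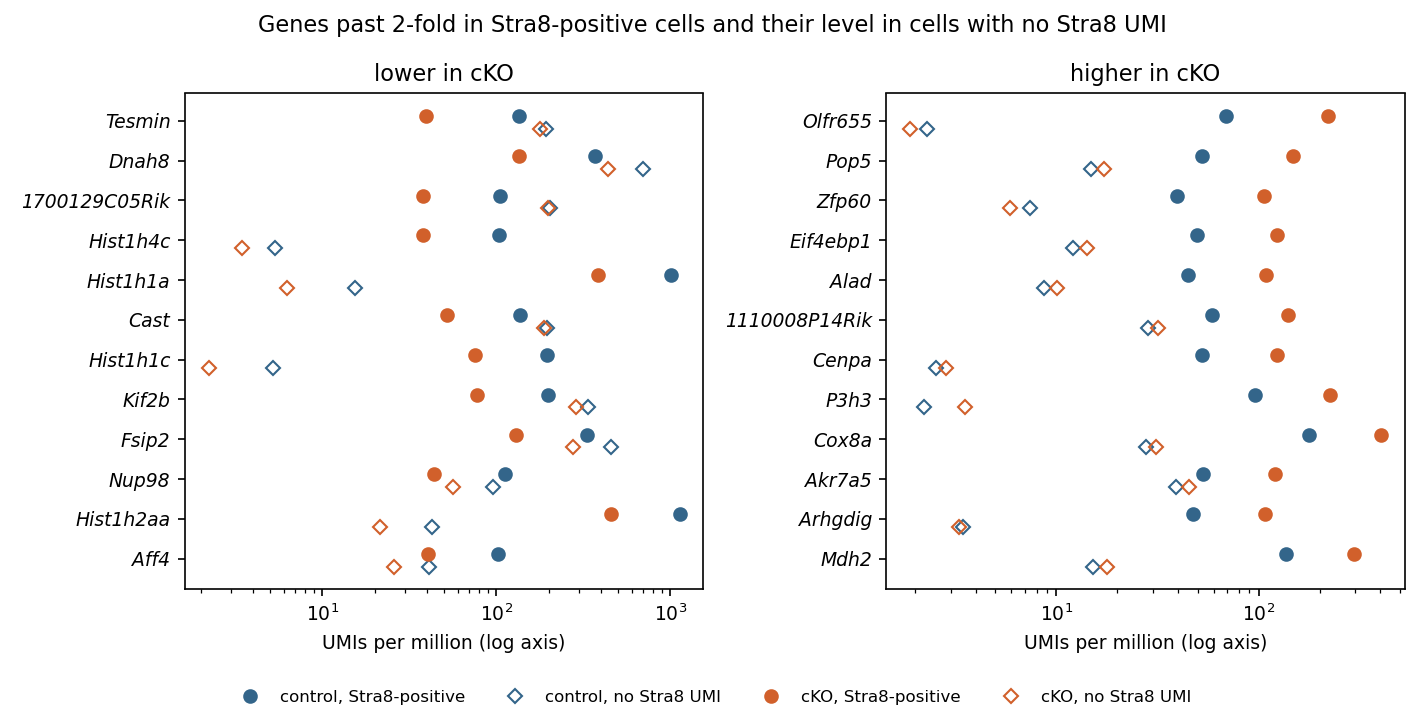
CPM (x axis, log scale) of the 12 genes lowest (left) and 12 highest (right) in cKO, for control (blue) and cKO (orange); filled points are Stra8-positive cells and open diamonds are cells with no Stra8 UMI. Among the lower genes the diamonds of Tesmin, Dnah8 and Cast lie to the right of the blue points, whereas those of Hist1h1a and Hist1h4c lie far to the left.

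The genes most like Stra8 in pattern were found over 8 points, the 4 gates in each library, by the correlation of levels. They were Trank1 (r 0.976), Fmr1nb (0.976), Cul5 (0.974), Prdm9 (0.968), Rasal2 (0.966) and Acer3 (0.962). The points share libraries and the Stra8-positive cells were chosen for Stra8, so these are descriptions with no p-value. In Stra8-positive cells Trank1 had 89.9 and 58.2 CPM and Acer3 99.1 and 64.1, while Cul5 had 164 and 154 and Fmr1nb 75.6 and 72.8. CNCCTCAG was in a 300-base promoter window (250 bases before to 50 after a start) of 4 of these 6 genes (66.7%), against 9.12% of 27025 genes. It was in 4 of 7 entry regulators with a promoter in the table (57.1%: Dazl, Gm4969, Rbm46 and Sohlh2), 4 of 15 axis genes (26.7%) and 3 of 14 strand exchange genes (21.4%). Among the 12 lowest and 12 highest genes past 2-fold it was in 1 of 12 and 0 of 10 with a promoter in the table.

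Promoters of the meiotic lists were mostly open in cKIT+ spermatogonia of both genotypes. An ATAC-seq region in all 5 libraries touched 13 of 15 axis genes (86.7%), 5 of 7 break-formation genes (71.4%) and 8 of 14 strand exchange genes (57.1%), against 23.7% of all genes, and 22 of 25 replication genes (88.0%). No gene of these 4 lists had an H3K27me3 region in all 5 libraries, as did 3.79% of all genes and 7 of 16 undifferentiated-spermatogonia genes (43.8%). Meioc had an H3K27me3 region in control library 2 and cKO library 3, Kit in control 1 and cKO 2, and Uchl1 in both control libraries and cKO 3. None of these genes separated the genotypes by the presence of a region.

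Of the marker lists of somatic and blood cells, only that of Sertoli cells had a ratio with an interval that left out 0. Sertoli-cell genes summed to 450 CPM in control and 296 in cKO Stra8-positive cells (-0.61, -0.84 to -0.38). The control sum was above that of the spermatogonial gate (240 CPM), the prophase gate (121), all other cells (282) and free RNA (332), and 2 of 7 at level were past 2-fold lower, against 5.61% of all genes. The list was led by Ctsl (156 and 117) and Clu (135 and 56.8, -1.24), both widely expressed, and 1 control cell alone held 122 Clu UMIs of 235. The defining Sertoli genes Sox9 and Wt1 were at 7.45 CPM or lower and Fshr at 0. Leydig-cell genes summed to 22.3 and 21.8 CPM, macrophage genes to 6.30 and 5.82 and endothelial genes to 24.6 and 36.4, with Lhcgr, Hsd3b1, C1qa and Adgre1 at 0. Haemoglobin had 3 and 1 UMIs.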

How the data were processed

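Whole-testis single-cell RNA-seq of 1 control and 1 cKO library was analysed, with ATAC-seq and CUT&Tag region lists of cKIT+ spermatogonia for the promoters. The deposited matrices hold raw UMI counts of every barcode, made by the authors with Cell Ranger per the file headers (3' chemistry per the labels' protocols, build mm10 per the submitters' processing notes). No cell had been selected. The ATAC-seq values are the fold enrichment (a ratio over background) of each peak as the authors deposited it, with Bowtie 2 and MACS 2 per the submitters' processing notes. The H3K27me3 regions carry a summed signal from SEACR, per the same notes and the authors' file layout, and served only as present or absent. All were called per library. The depth of each passing barcode, 3000 UMIs or more, sets its precision, and 95% intervals (Clopper-Pearson, Poisson, conditional binomial) cover counting error only.

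From the counts, UMIs were summed over Stra8-positive cells per library and divided by their total. Ratios between libraries carry no test. A gene was called past 2-fold with 1 CPM added and at least 100 CPM in either library (10 for gene lists). Genes named were the 12 lowest and 12 highest of these whose interval leaves out 0, the 20 that mark the cells, the 6 most like Stra8, every entry regulator and receptor, and, of other lists, the 4 highest and those past 2-fold. A gene that this rule names is not reported here. Hormad1, Sycp2, Rec8, Trip13, the neighbours of Gm4969 and the histone clusters were added after their values were seen. The members and all gene lists were chosen with earlier results of these data known, and so support nothing by themselves. Chromosomes came from RefSeq (GRCm38.p6) for 26666 of 32285 genes, holding 95.2% of the UMIs of these cells. Doublets were called with Scrublet in scanpy 1.11.5 and kept in the main values. The scripts were tested on simulated data. Alternatives included other thresholds, thinning to 3000 UMIs, TMM scaling from edgeR 4.0.16, and, chosen after seeing the data, the removal of cells with much spermatid RNA or over 20000 UMIs and the promoter overlaps (1 base or more). Bulk RNA-seq is not used here, because its transcript identifiers could not be paired with genes.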

Additional observations from a re-analysis of the deposited data

How the results depend on the processing

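Of 228 alternative values for the shares, stage markers, Kdm6a, counts of genes and list medians, 188 were classed as the same as the main value. For shares and Kdm6a this meant within its counting interval, and for counts within 1.5 times. For list medians it meant within a 95% order-statistic range over the genes of the list. That range is wide for short lists, so the 188 include medians whose sign turned. The values classed otherwise are given here. Of the 140 that are log2 ratios, 7 had the other sign, all of them list medians. With 1 Stra8 UMI enough, the shares of Stra8-positive cells were 3.6% in control and 2.26% in cKO, the spermatogonial shares 17.4% and 26.7%, the strand exchange median -0.79 and the replication median -0.11 (turned), the genes past 2-fold 31 lower and 1 higher, and Dazl turned to -0.13. With at least 3 Stra8 UMIs the shares of cells were 1.41% and 0.817%. At 2000 UMIs or more the control share was 1.54% and the log2 ratio of shares -0.42. At 5000 or more the control share was 1.5% and the spermatogonial shares 44.3% and 53.1%. Thinned to 3000 UMIs and chosen again, 1.32% and 0.699% of cells were Stra8-positive, of which 11.5% and 18.6% were spermatogonial and 23.0% of control cells prophase, with 132 genes lower and 95 higher a differentiating-spermatogonia median of 0.46 and an entry-regulator median of 0.14 (turned). The counts lower and higher were 166 and 44 without called doublets, 155 and 37 without cells with over 5% of UMIs from the elongating-spermatid list (chosen after seeing the data), 31 and 13 with 10 CPM added, 136 and 60 at a minimum of 50 CPM, and 7 and 7 at 200. Under 3 prophase UMIs 14 genes were higher and the strand exchange median was -0.72. At 3 or more, 150 were lower and 55 higher, and the medians were 0.068 for the axis list, 0.10 for strand exchange, 0.13 for break formation, 0.15 for entry regulators and -1.13 for undifferentiated spermatogonia, which all turned, and 0.70 for differentiating spermatogonia. The causes were not tested. Gm4969 stayed between -2.06 and -1.34 over the 12 settings that keep both sides of the prophase split, and was -2.30 under 3 prophase UMIs and -0.41 at 3 or more. No paired analysis was possible because each genotype has 1 single-cell library, which also leaves no replicate to leave out. The cKO depth of 686799 UMIs limits genes under 10 CPM to fewer than 7 UMIs.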
